A study of Rattus norvegicus with 9 samples.

Results

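The 10 genes described here are the immediate early genes Fos, Fosb, Junb, Egr1, Egr2, Nr4a1, Arc, Ier2, Dusp1 and Btg2, in the hypothalamus of 9 rats. They were taken by name: every probe set to which the array's annotation gives 1 symbol, and that symbol is one of the 10, which yielded 12 of the 31042 probe sets measured. These 12 cover 9 of the 10 genes, since Btg2 was named by 0 probe sets. Each array carries 1 male rat aged 13 weeks. The 4 rats numbered 1, 4, 7 and 13 had eaten a noodle diet, in which instant noodles made up 30% of the weight and fat supplied 26% of the energy, and the 5 rats numbered 2, 5, 8, 11 and 14 had eaten the control diet, which per the series description was the same food with the seasonings removed. Feeding lasted 30 days or 4 weeks, as the labels say in different places, the diets were fed in pairs (near 60 g daily for each kg of body weight), water was free, and the rats lived in cycles of 12 hours. The comparison asks whether the seasonings alter hypothalamic transcripts. The strain, the hour of dissection and the way the rats were killed go unstated in the labels.

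Immediate early genes are transcribed within minutes of a stimulus, from factors already present in the cell, and their mRNAs are short-lived. In neurons calcium entry, cyclic AMP and MAP kinase signalling act through the transcription factors CREB and SRF with its Elk partners, which bind cyclic AMP response elements and CArG boxes in these genes' promoters. In the hypothalamus Fos is widely used as a marker of recently active neurons, for example after fasting, refeeding, salt loading or handling.

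Promoter sequences from RefSeq (build GRCr8, 250 bases before to 50 after the start site) were matched to 8 of the 10 genes: Fosb, Junb, Egr1, Egr2, Nr4a1, Ier2, Dusp1 and Btg2. Fos and Arc are named only. Promoters of 5 genes are shown, picked after the array values had been seen. In the deposited values Nr4a1, Ier2 and a Dusp1 probe set had the highest Pearson r with Egr1 over the rats. Both Egr2 probe sets had a low one. None of these correlations passed after adjustment. After quantile normalization the r was -0.039 for Nr4a1, 0.065 for Ier2 and -0.16 for that Dusp1 probe set, so the choice of promoters supports no link between motif and pattern. Capitals mark CArG boxes and the motif CGTCA on either strand (TGACG on the printed strand where it lies on the other), and each run reads 5′ to 3′ along the gene's strand.
Egr1 (chr18:26736828-26737127, plus strand): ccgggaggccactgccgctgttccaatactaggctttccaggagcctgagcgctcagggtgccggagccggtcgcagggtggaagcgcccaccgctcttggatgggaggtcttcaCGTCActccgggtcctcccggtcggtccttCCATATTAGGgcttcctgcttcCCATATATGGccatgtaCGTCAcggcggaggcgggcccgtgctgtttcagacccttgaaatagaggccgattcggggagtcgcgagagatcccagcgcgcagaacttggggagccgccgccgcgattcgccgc
Nr4a1 (chr7:134259888-134260187, plus strand): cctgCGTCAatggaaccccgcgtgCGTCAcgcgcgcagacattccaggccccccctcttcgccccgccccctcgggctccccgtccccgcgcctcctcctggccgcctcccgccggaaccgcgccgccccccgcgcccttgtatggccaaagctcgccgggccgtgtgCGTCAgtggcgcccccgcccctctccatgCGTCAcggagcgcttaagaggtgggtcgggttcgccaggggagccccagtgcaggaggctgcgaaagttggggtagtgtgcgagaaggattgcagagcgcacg
Ier2 (chr19:40399123-40399422, plus strand): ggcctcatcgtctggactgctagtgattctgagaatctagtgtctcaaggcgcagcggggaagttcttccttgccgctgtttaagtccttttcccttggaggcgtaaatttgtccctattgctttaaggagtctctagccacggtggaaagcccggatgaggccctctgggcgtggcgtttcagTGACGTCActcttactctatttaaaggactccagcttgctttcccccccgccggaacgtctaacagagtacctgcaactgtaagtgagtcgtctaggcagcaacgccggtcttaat
Dusp1 (chr10:17184603-17184902, plus strand): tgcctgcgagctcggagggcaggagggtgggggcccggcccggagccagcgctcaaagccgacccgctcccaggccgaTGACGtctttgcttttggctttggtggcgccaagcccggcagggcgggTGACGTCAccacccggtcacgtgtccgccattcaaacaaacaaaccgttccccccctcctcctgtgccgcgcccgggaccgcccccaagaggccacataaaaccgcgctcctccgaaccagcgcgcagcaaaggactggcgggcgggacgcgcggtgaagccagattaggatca
Egr2 (chr20:21054392-21054691, minus strand): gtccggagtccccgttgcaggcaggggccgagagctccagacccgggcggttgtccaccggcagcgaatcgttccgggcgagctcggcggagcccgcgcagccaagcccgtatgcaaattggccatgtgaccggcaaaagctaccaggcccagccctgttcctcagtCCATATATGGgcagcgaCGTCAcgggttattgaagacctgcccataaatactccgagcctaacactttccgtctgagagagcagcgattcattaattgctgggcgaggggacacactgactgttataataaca

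Egr1 held 2 CArG boxes, whose first bases lie 105 and 83 bases before the start site, and Egr2 held 1, at 83 bases before it. A CArG box was found in these 2 of the 8 promoters, and in 1.64% of the 33469 promoters of 300 bases in the table. The full element TGACGTCA was found in Ier2 (66 bases before the start site), Dusp1 (124) and Btg2 (201), that is in 3 of 8, and in 1.83% of all. The shorter CGTCA, which a full element holds once on each strand, was in 7 of 8 (21.2% of all), the exception being Fosb, with 4 copies in Nr4a1. The AP-1 motif TGAGTCA, searched on both strands, was in 0 of 8 and in 4.63% of all. A match describes letters in this window and is neither a binding site nor a cause of the values below.

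The authors deposited values read here as log2, from 5.13 to 13.7, with array medians between 6.777 and 6.785. As deposited, most probe sets hardly differ between arrays. Probe sets are called variable here where their values over the 9 rats range over more than 0.05 log2, and compressed where they range over less than 0.01. Of all probe sets, 3.94% were variable, and of the 12 probe sets of immediate early genes, 2 were, 1 for Fos and 1 for Egr1. No member lay near the limits: the widest compressed one, that of Ier2, ranged over 0.000904, and the narrower variable one, that of Egr1, over 0.703. Values of compressed probe sets are given here as an order of the animals and are not read as fold changes; whether that order follows the transcript was not tested. Of the 14 hypothalamic marker genes measured 8 had a variable probe set, among them Avp, Oxt, Hcrt and Pmch. Among neighbouring regions it was 0 of 8 for cortex, hippocampus and amygdala, 0 of 5 for thalamus and 1 of 6 for striatum (Ppp1r1b). It was 2 of 8 for anterior pituitary and pars tuberalis (Cga and Tshb), 1 of 6 for choroid plexus (Ttr) and 12 of 12 for meninges. For oligodendrocytes it was 11 of 11 and for neurons 6 of 15. A variable probe set differs between rats and need not mark the presence of its transcript, so these counts do not check the tissue. The table holds no detection calls, so absence of a transcript could not be read.

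Neither Fos nor Egr1 differed between the diets beyond the spread of the rats. Fos encodes the leucine zipper protein that joins Jun proteins to form AP-1. Its variable probe set measured 7.28, 7.28, 7.002 and 6.70 in noodle-diet rats 1, 4, 7 and 13, and 7.22, 7.10, 6.90, 7.41 and 6.98 in control rats 2, 5, 8, 11 and 14. The highest Fos value was that of control rat 11 and the lowest that of noodle-diet rat 13, and the other 7 rats of the diets were interleaved. Fos averaged 7.07 ± 0.28 in noodle-diet rats (SD, n = 4) and 7.12 ± 0.20 in control rats (SD, n = 5). The difference, noodle minus control, was -0.057 (SE 0.15, 95% interval -0.41 to 0.29; limma, adjusted p = 1 over all probe sets; exact 2-sided permutation p = 0.714). Read as a ratio this is 0.961, with an interval of 0.755 to 1.22. In bulk tissue, fewer cells that express a gene and less RNA in each of them cannot be told apart.

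Egr1, a zinc finger transcription factor induced by the same signals, measured 8.20, 8.54, 8.05 and 8.18 in noodle-diet rats 1, 4, 7 and 13, and 8.52, 8.43, 8.29, 8.67 and 7.97 in control rats 2, 5, 8, 11 and 14. Both the highest value, of rat 11, and the lowest, of rat 14, came from the control diet, so the noodle-diet values lay wholly within the control range. Egr1 averaged 8.24 ± 0.21 in noodle-diet rats (SD, n = 4) and 8.38 ± 0.27 in control rats (SD, n = 5). The difference was -0.14 (SE 0.15, 95% interval -0.50 to 0.22; limma, adjusted p = 1; exact 2-sided permutation p = 0.413), a ratio of 0.909 with an interval of 0.709 to 1.17. Read on the log2 scale judged from the values, both genes spanned 1.63-fold between the extreme animals. The summarization is unstated, so whether these ratios are those of the transcripts was not tested. The sign of the Fos difference rested on single rats: it was 0.065 without noodle-diet rat 13 and 0.014 without control rat 11, and -0.18 with array weights. That of Egr1 ran from -0.24 without control rat 14 to -0.063 without control rat 11.

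**Figure D1:**
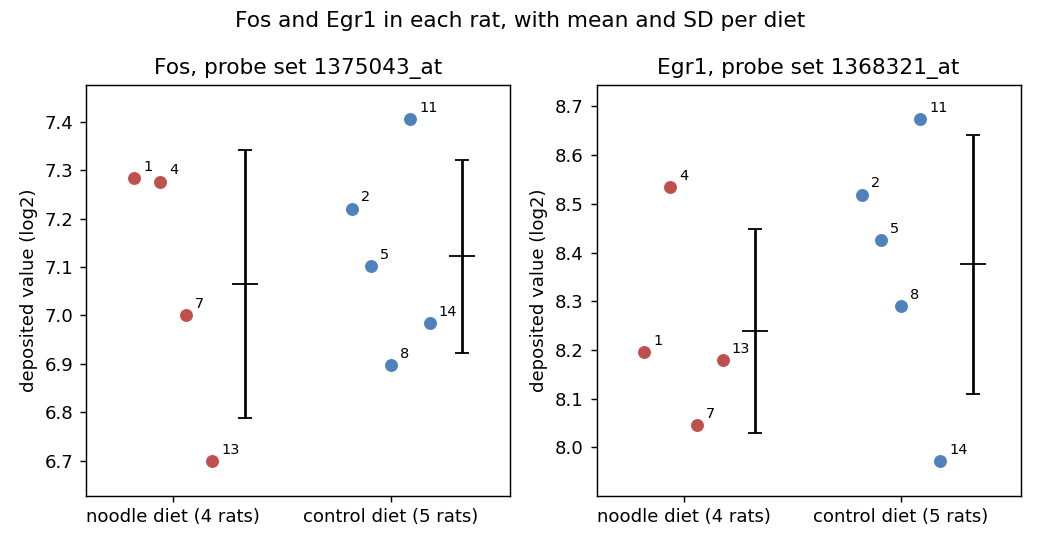
Deposited log2 values of the variable Fos and Egr1 probe sets, 1 point per rat with its number, noodle diet left and control diet right; the bar beside each group is the mean ± SD. In both panels control rat 11 is the highest animal, and the noodle-diet points lie among the control points except for rat 13 in Fos, at 6.70.

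Counted over all 12 probe sets of these genes, 0 passed limma at an adjusted p under 0.05 (0.0% of all probe sets did), 0 had an unadjusted p under 0.05 (2.29% of all), and 0 had diets that did not overlap (0.567% of all). The mean was lower on the noodle diet in 8 of the 12, where 52.0% of all probe sets were lower. The median difference was -7.3e-05 log2, against -4.6e-06 over all probe sets. The lowest unadjusted p by limma among the 12 was that of Ier2, 0.198.

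The other transcription factors of the group were measured by compressed probe sets, whose values are given as deviations from the mean of the 9 rats in units of 0.0001 log2. Nr4a1, an orphan nuclear receptor, stood at -1.40, 0.52, -0.60 and -1.26 in noodle-diet rats 1, 4, 7 and 13, and at 1.23, -0.24, 2.12, 2.16 and -2.53 in control rats 2, 5, 8, 11 and 14. Control rats 11 and 8 were highest and control rat 14 lowest, and the noodle-diet rats lay between them. Fosb, whose protein pairs with Jun proteins as Fos does, and Junb, one of those partners, were both highest in control rat 2 (3.93 and 1.93) and lowest in noodle-diet rat 13 (-1.98 and -2.01). Egr2, a relative of Egr1, had 2 probe sets with different orders: the first by identifier was highest in control rat 11 (1.45) and the second in control rat 5 (1.14), the rat in which the first was lowest (-1.81). The compressed Fos probe set was highest in control rat 14 (2.18) and lowest in control rat 5 (-3.28), and so did not repeat the order of the variable one.

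The remaining members act outside the core transcription factors. Ier2, a nuclear protein of the early response, stood at -3.06, 1.49, -3.22 and -1.31 in noodle-diet rats 1, 4, 7 and 13, and at 0.01, 1.82, 3.67, 4.82 and -4.22 in control rats 2, 5, 8, 11 and 14 (units of 0.0001 log2). Control rats held both ends, and 3 of the 4 noodle-diet rats lay under the mean. Dusp1, the phosphatase that switches MAP kinases off, had 2 probe sets, and both were highest in control rat 11, at 3.16 in the first by identifier and 2.69 in the second. Arc, a dendritic protein that acts in glutamate receptor uptake, was highest in control rat 11 (2.06) and lowest in control rat 5 (-1.59). Among these compressed probe sets the differences between diets ran from -2.74 (Ier2, SE 1.95) to 0.82 (Arc, SE 0.79) in the same unit, and limma gave each an adjusted p of 1.

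Control rat 11 had the highest value in 8 of the 12 probe sets and was among the 3 highest in 11; over all probe sets that rat was highest in 11.3% and among the 3 highest in 34.5%. Among the 10 compressed members it was highest in 6, both Dusp1 probe sets among them, and among all compressed probe sets in 11.6%. Control rat 14, on the same diet, was lowest in 5 of the 12 and among the 3 lowest in 8, against 10.8% and 34.5% of all probe sets, and it was the highest rat in the compressed Fos probe set. Noodle-diet rat 4 was above the mean in 10 of the 12 (49.7% of all probe sets) without being highest in any. These counts describe the members in the deposited values and were given no test. They were not repeated after quantile normalization, which changed the order of the rats in the compressed members. The array medians of control rats 11 and 14, the highest and the lowest animal for Egr1, were 6.778 and 6.777. The array median had r = 0.057 with Egr1 (exact permutation p = 0.880; rho = 0.12, p = 0.776) and r = -0.041 with Fos (exact permutation p = 0.916; rho = 0, p = 1).

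**Figure D2:**
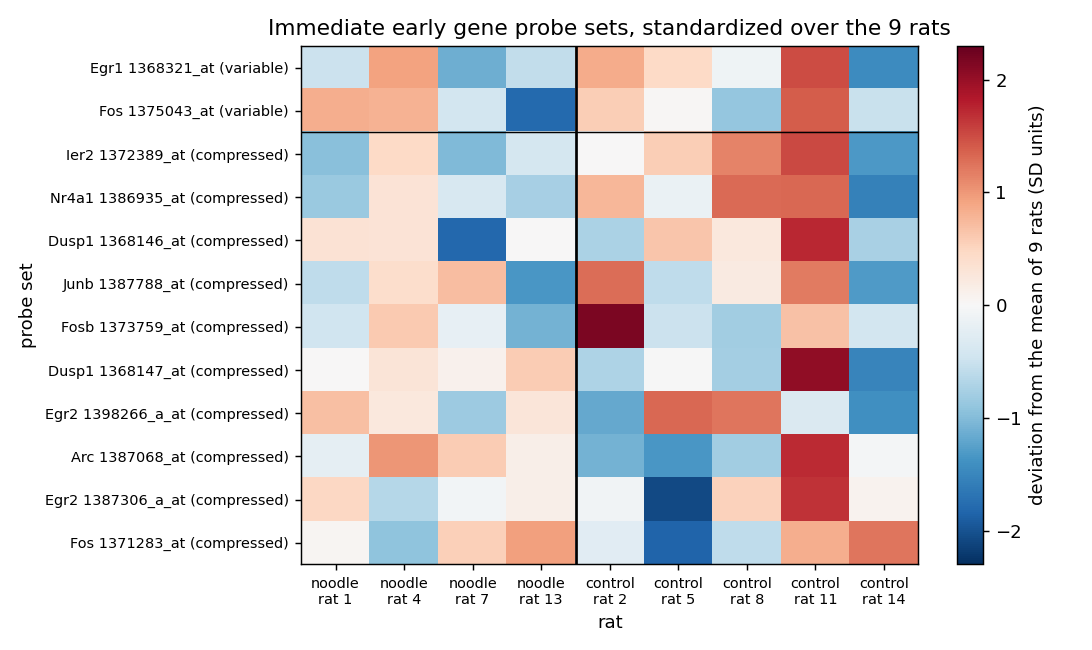
Deviation from the mean of the 9 rats, in SD units, for the 12 probe sets (rows; variable ones above the line, compressed ones below it in order of their correlation with Egr1) in each rat (columns; noodle diet left, control diet right). In the deposited values the column of control rat 11 is above the mean in 11 of 12 rows and that of control rat 14 in 2 of 12. Because each row is scaled to its own SD, colours show order and not fold change.

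Fos and Egr1 tended to be high in the same rats, without passing the test. Control rat 11, noodle-diet rat 4 and control rat 2 were among the 4 highest for both, while noodle-diet rat 1 was second for Fos and sixth for Egr1. Over the 9 rats Pearson's r was 0.65 (exact permutation p = 0.0585) and Spearman's rho 0.67 (exact permutation p = 0.0589). With values centred within each diet r was 0.65. Without the 2 rats farthest from the Egr1 median, control rats 11 and 14, it was 0.52, and without single rats it ran from 0.51 (control rat 11) to 0.76 (noodle-diet rat 1, exact permutation p = 0.0294, not adjusted). In all 21 correlations were computed, of Egr1 and of Fos with each other and with the 10 compressed probe sets of the group, and the adjusted p of this one over the 21 was 0.203 for Pearson's r and 0.247 for Spearman's rho. Of all variable probe sets, 4.42% reached r = 0.6 with Egr1.

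Among the 10 compressed probe sets 5 had r of at least 0.6 with Egr1: Ier2, Nr4a1, 1 of the 2 of Dusp1, Junb and Fosb. Among all 29759 compressed probe sets 4.22% did. With r above 0 there were 9 of the 10, where 51.0% of all compressed probe sets had such an r. These correlations were added after the values had been seen. Ier2 reached r = 0.83 (exact permutation p = 0.0087, adjusted 0.172; rho = 0.83, p = 0.0083, adjusted 0.113) and Nr4a1 r = 0.78 (exact permutation p = 0.0164, adjusted 0.172; rho = 0.82, p = 0.0108, adjusted 0.113). Within diets these were 0.81 and 0.75, and without control rats 11 and 14 they were 0.64 and 0.54. The first Dusp1 probe set followed at 0.68, Junb at 0.64 and Fosb at 0.62, and the second Dusp1 probe set at 0.57, while Arc (0.19) and the Egr2 probe sets (0.056 and 0.21) lay lower, and the compressed Fos probe set ran the other way (-0.44). None of the 21 passed after adjustment. With control rat 8 left out 2 did, Ier2 (r = 0.94) and Nr4a1 (r = 0.92), each with an adjusted exact permutation p of 0.0182. The count of 5 fell to 2 without control rat 11, and to 0 after quantile normalization, where r was 0.065 for Ier2 and -0.039 for Nr4a1. That normalization widened the median range of compressed probe sets to 0.00823 log2, from 0.000503 as deposited. The likeness to Egr1 was thus measured in the deposited values and not after it. With Fos, 1 of the 10, that of Fosb (r = 0.65), reached 0.6, where 2.66% of compressed probe sets did.

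**Figure D3:**
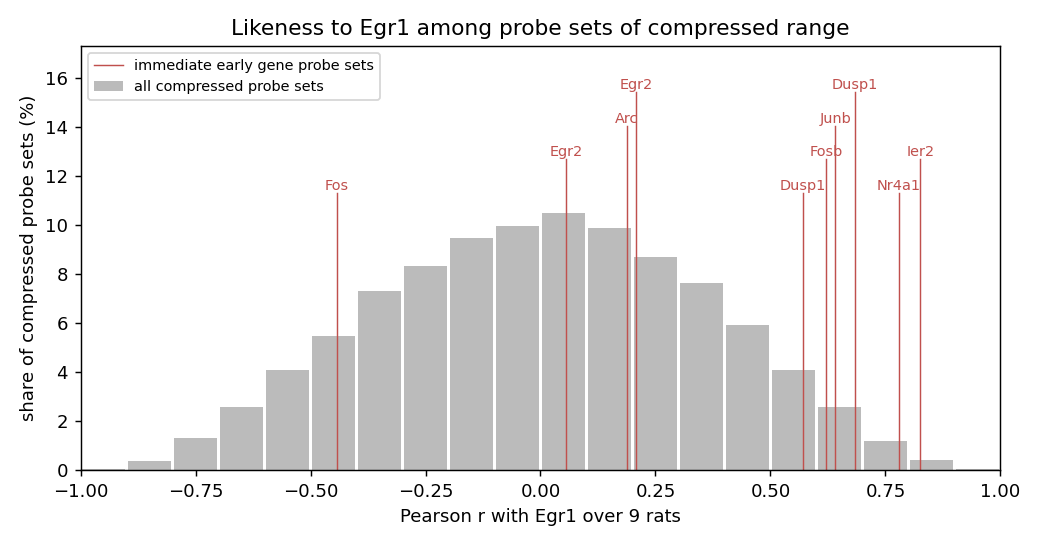
Pearson r with Egr1 over the 9 rats, horizontal, against the share in percent of all compressed probe sets in each interval of r (grey bars); red lines mark the 10 compressed probe sets of immediate early genes, their heights only spacing the names. In the plot 5 lines stand at 0.6 or above, led by Ier2 at 0.83, and the compressed Fos probe set is the only one below 0.

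Beyond the 10, a list of 56 further activity-regulated genes (54 measured by 85 probe sets) gave 0 probe sets that passed limma (0.0% of all). By limma 0 of the 85 had an unadjusted p under 0.05 (2.29% of all). On the noodle diet 45 were higher and 40 lower, where 52.0% of all probe sets were lower. Npas4, a neuron-specific early factor, was named by 0 probe sets. Of the 82 compressed probe sets of the list 4 reached r = 0.6 with Egr1 (4.88%), near the 4.22% of all compressed ones. Those 4 belonged to Klf2 (2 of them), Nfil3 and Nr4a3. Other compressed probe sets of Klf2 had r of -0.024 and -0.14 with Egr1, and other ones of Nr4a3 had 0.37 and 0.19. Variable probe sets in this list were those of 3 genes, Klf2, Ccn2 and Id1. Klf2, a zinc finger factor abundant in blood vessel lining, measured 7.42, 7.65, 7.20 and 7.51 in noodle-diet rats 1, 4, 7 and 13, and 7.60, 7.81, 7.74, 7.67 and 7.24 in control rats 2, 5, 8, 11 and 14. It was lowest in noodle-diet rat 7 and control rat 14, the lowest pair for Egr1 as well, and had r = 0.79 with Egr1 and 0.22 with Fos, given here as a description. Its difference was -0.17 (SE 0.13). Among 12 marker genes of blood vessels 1, Rgs5, had a variable probe set, and their part in the Klf2 values was not tested. Ccn2, a matrix-associated growth regulator, averaged 6.83 ± 0.48 in noodle-diet rats and 6.98 ± 0.23 in control rats (SD, n = 4 and 5). Id1, an inhibitor of helix-loop-helix factors, averaged 7.90 ± 0.040 and 7.95 ± 0.19 in the same order.

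The later wave of activity genes, which encode secreted and synaptic proteins, gave no probe set that passed. Of 24 probe sets for 13 measured genes 15 were higher and 9 lower on the noodle diet, with 0 at an unadjusted p under 0.05 by limma. The secretory granule genes Scg2 and Vgf averaged 11.67 ± 0.048 and 9.49 ± 0.054 in noodle-diet rats and 11.61 ± 0.14 and 9.55 ± 0.096 in control rats (SD, n = 4 and 5). Syt4, a vesicle protein, and Nrn1, which promotes neurite growth, differed by 0.017 (SE 0.063) and 0.0098 (SE 0.0091). For Syt4 this is the variable probe set, and another of higher mean was not variable. Nrn1 was variable by a small margin, with a range of 0.0536 log2 against the limit of 0.05, and was lowest in control rat 2. The kinases, phosphatases and transcription factors that carry signals to immediate early genes were 28 measured genes with 65 probe sets. Only a probe set of Prkacb, a catalytic subunit of protein kinase A, was variable. It stood at 7.80 ± 0.047 in noodle-diet rats and 7.81 ± 0.080 in control rats (SD, n = 4 and 5). Another Prkacb probe set had a higher mean and was not variable. None of the 65 had an unadjusted p under 0.05 by limma (2.29% of all probe sets did), the lowest being that of Elk1 (0.0578, compressed).

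Genes that respond to glucocorticoids, the adrenal steroids released in stress, were set beside the group. Of 21 probe sets for 16 genes 15 were lower on the noodle diet, where 52.0% of all probe sets were lower. By limma 0 of the 21 had an unadjusted p under 0.05 (2.29% of all). The count of lower probe sets was given no test. The 6 variable ones had a common low point, noodle-diet rat 7, in Sgk1, Tsc22d3, Klf9, Nfkbia and Sult1a1, the exception being Mt2A, a metallothionein gene, which was lowest in control rat 14. Sgk1, a kinase of ion transport, averaged 8.19 ± 0.20 in noodle-diet rats and 8.37 ± 0.22 in control rats, and Klf9 9.31 ± 0.13 and 9.41 ± 0.17 (SD, n = 4 and 5). Tsc22d3, Nfkbia and Sult1a1 differed by -0.080, -0.077 and -0.26, and Mt2A by 0.058. A score per rat, the mean deviation of the 6, had r = -0.21 with Fos and 0.15 with Egr1 (exact permutation p = 0.580 and 0.689, n = 9). Rat 11, the highest for Fos and Egr1, had one of the lower scores (-0.19). A score made in the same way from 12 meningeal marker genes had the same sign as the glucocorticoid score in every rat. So did that of 3 ependymal and tanycyte genes, and that of astrocytes in every rat but control rat 2. The glucocorticoid, meningeal and ependymal scores were negative in noodle-diet rats 4 and 7 and in control rats 11 and 14. In noodle-diet rat 7 they were -0.32 (glucocorticoid), -0.50 (meningeal) and -0.17 (ependymal), and in control rat 8 0.25, 0.54 and 0.063. The relation between these scores was not tested.

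**Figure D4:**
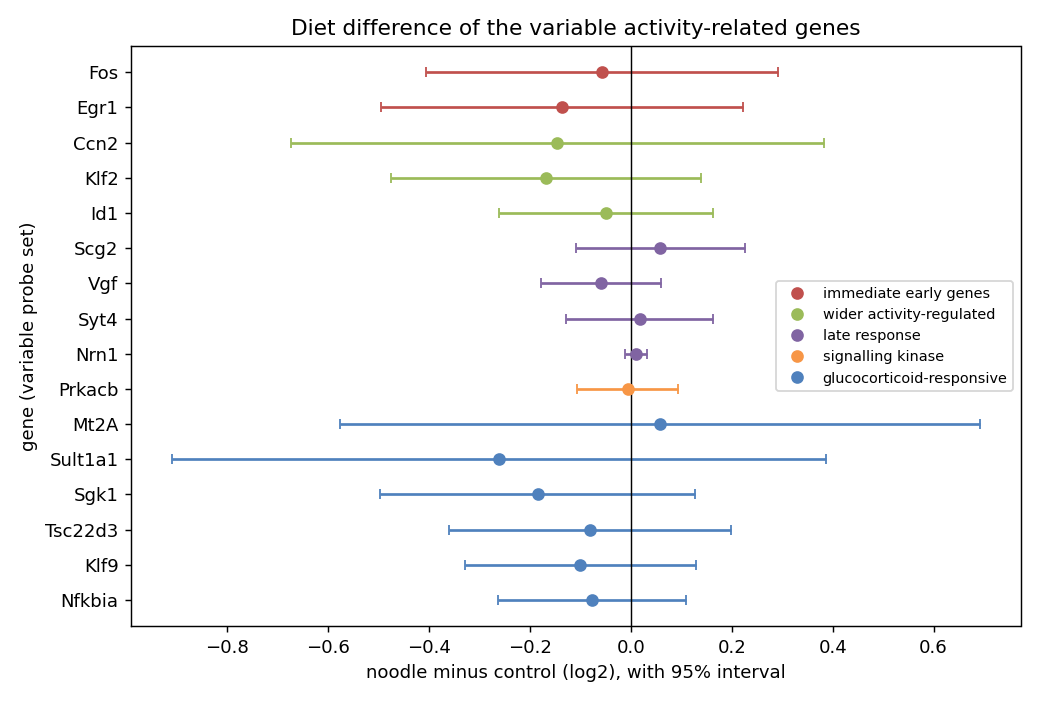
Difference between diets, noodle minus control in log2, for the variable probe sets of Fos, Egr1 and 14 genes of the related lists; points are limma estimates and bars their 95% intervals, coloured by list. Each of the 16 intervals holds 0, and that of Egr1 runs from -0.50 to 0.22.

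Scores of cell and region markers were set against Fos and Egr1 in the same way, over 9 lists with at least 2 variable genes, 18 correlations in all with the glucocorticoid list among them. None passed after adjustment. The strongest was that of Fos with the 8 variable hypothalamic peptide genes (Avp, Cartpt, Hcrt, Npy, Oxt, Pmch, Sst and Trh), r = -0.67 (exact permutation p = 0.0504, adjusted 0.906) and rho = -0.87 (exact permutation p = 0.0045, adjusted 0.0812). Without the 2 rats farthest from the median of that score, noodle-diet rat 1 and control rat 2, both low, r was -0.81, and within diets it was -0.67. That score lay between -0.30 and 0.16 in noodle-diet rats and between -0.26 and 0.16 in control rats. The meningeal score, whose 12 genes were all variable, ranged from -0.50 to 0.70 in noodle-diet rats and from -0.57 to 0.54 in control rats, with r = -0.12 with Fos and 0.039 with Egr1 (exact permutation p = 0.749 and 0.918). Control rats 11 and 14, at opposite ends for Egr1, had meningeal scores of -0.56 and -0.57. For neurons r was 0.024 with Fos and -0.33 with Egr1, and for oligodendrocytes -0.15 and 0.015 (exact permutation p of 0.371 and above, n = 9). Egr1 had its largest r, 0.48, with anterior pituitary and pars tuberalis (exact permutation p = 0.183). That r was 0.69 within diets and 0.16 without noodle-diet rat 4 and control rat 14. With the hypothalamic peptide score Egr1 had r = -0.36 (exact permutation p = 0.334), and -0.75 without noodle-diet rat 1 and control rat 2.

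Of 934 variable probe sets named by 1 symbol outside the group, the one whose pattern was most like the mean of Fos and Egr1 was that of Npvf, the gene of the RFamide-related peptides of the dorsomedial hypothalamus (r = 0.90 over the 9 rats, a description with no test). Npvf measured 8.29, 8.36, 8.10 and 8.18 in noodle-diet rats 1, 4, 7 and 13, and 8.46, 8.25, 8.11, 8.43 and 8.02 in control rats 2, 5, 8, 11 and 14. Its highest rats, control rats 2 and 11 and noodle-diet rat 4, were also the 3 highest for Egr1, and control rat 14 was lowest for both. Without single rats its r lay between 0.88 and 0.95. Next came Chchd5, a mitochondrial protein gene (0.84), Gas6, the ligand of the TAM receptor kinases (0.83), Clcn3, a chloride-proton exchanger of endosomes (0.83), Cracdl (0.77), Magi1, a junction scaffold (0.75), Dct (0.74), Creg2 (0.73), Arhgap5 (0.73) and Dera (0.72).

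Egr1 alone was most like Gas6 (r = 0.90) and Npvf (r = 0.89), and Fos most like Creg2 (r = 0.87) and Gabbr1, which encodes a GABA B receptor subunit (r = 0.84). Gas6 is the narrower of these, with a range of 0.18 log2, and Creg2 the wider, with 1.996. Gabbr1 had r = 0.36 with Egr1 and Creg2 0.48, both below their r with Fos; that difference was not tested. The genes that ran most opposite to the mean of Fos and Egr1 were Bhlhe40, a clock repressor that is itself inducible (r = -0.70), Mdm4, an inhibitor of p53 (-0.69), Rab5a, a small GTPase of early endosomes (-0.67), Impact (-0.67) and Abhd1 (-0.66). Without control rat 11 the r was -0.54 for Bhlhe40, -0.43 for Mdm4, -0.84 for Rab5a, -0.91 for Impact and -0.52 for Abhd1. Bhlhe40 was lowest in control rat 11, at 7.68, where Fos and Egr1 were highest, with control rat 2 close to it at 7.69. It stood at 7.86, 7.83, 7.95 and 7.93 in noodle-diet rats 1, 4, 7 and 13. These genes were picked as the extremes of 934 probe sets in 9 animals, so their r describes the search and was given no test. Each r is that of a single probe set. Chchd5, Gas6, Clcn3, Magi1, Mdm4, Rab5a, Impact and Abhd1 have further probe sets, which are not described here.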

How the data were processed

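RNA from the hypothalamus of 9 rats was labelled with biotin and hybridized to rat expression arrays, 1 per rat, starting with 100 ng of total RNA, per the labels. A value per probe set and array was deposited by the authors, on a log2 scale as judged from the values. Neither label nor header states the summarization or the normalization. Values were used as deposited, after 57 control probe sets had been left out. Groups and rat numbers came from the sample titles. The diets were compared with limma 3.58.1 in R 4.3.3 (lmFit, eBayes with an intensity trend, 2-sided, Benjamini-Hochberg adjustment over 31042 probe sets, threshold 0.05), after a check on simulated data. Beside it stands an exact permutation test over the 126 splits of 9 rats into 4 and 5, whose smallest p is 0.0079. Correlations over rats were tested by exact permutation (numpy, scipy 1.17.1). P-values were computed with rats as the units, the SD describes the spread between these rats, and the number of arrays limits the precision. The genes named were all probe sets of the group, the variable probe sets of the related lists (at most 10 per list), the 10 nearest and 5 most opposite genes, and the 2 nearest to Fos and to Egr1. The members and lists were chosen with earlier results of these data known, and the correlations of compressed probe sets were a later addition, made with the values in view. Alternatives included a filter at the 20th percentile of means, array medians set equal, quantile normalization, no trend, array weights, a robust variance model, 1 probe set per gene and leaving out each rat. Gene names are those of the platform annotation.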

Additional observations from a re-analysis of the deposited data

Results flagged for a closer look

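In 52 groups examined (a probe set in 1 diet each), 4 held a single outlying rat by Dixon's ratio of gap to range, where about 1 in 20 is expected by chance. The first Dusp1 probe set by identifier, a compressed one, stood at -3.28 in noodle-diet rat 7 (deviation in units of 0.0001 log2), with the other 3 noodle-diet rats at 0.01 to 0.61. Vgf was at 9.72 in control rat 14, with the other controls at 9.49 to 9.53. Nrn1 was at 8.446 in control rat 2, with the other controls at 8.478 to 8.487. Nfkbia was at 7.75 in control rat 5, with the other controls at 7.47 to 7.53. Fos and Egr1 themselves had no such rat in either diet.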

How the results depend on the processing

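No paired analysis was possible because the labels speak of paired feeding but do not say which rats form a pair, and the diets share no rat number. In each alternative limma fit 0 probe sets passed, over all probe sets and among the immediate early genes, and with limits of 0.02 or 0.10 in place of 0.05 log2 the same number of member probe sets, 2, was variable. With single rats left out the Fos difference ran from -0.13 to 0.065 and that of Egr1 from -0.24 to -0.063. In units of 0.0001 log2, quantile normalization turned the sign of the compressed Fos probe set (-1.07), the first of Egr2 (0.24), the second of Egr2 (-2.27) and the second of Dusp1 (-0.95), and a common array median turned Junb (0.01) and the first of Egr2 (0.50). Single rats turned the compressed Fos probe set (-0.27 to 1.13), Junb (-1.09 to 0.03), the first of Egr2 (-0.51 to 0.31) and the second of Egr2 (-0.14 to 0.45). In log2 they turned Ccn2 (-0.33 to 0.0025), Id1 (-0.098 to 0.022), Scg2 (-0.0021 to 0.086), Syt4 (-0.018 to 0.046), Prkacb (-0.030 to 0.020), Mt2A (-0.12 to 0.22) and Tsc22d3 (-0.16 to 0.0046); array weights turned Prkacb (0.010) and Mt2A (-0.013).

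The r of Egr1 and Fos lay between 0.51 and 0.76 with single rats left out, and the number of the 21 correlations passing between 0 and 2. Quantile normalization turned the r of Egr1 with Fosb (-0.11), Junb (-0.098), Egr2 (-0.15 and -0.19), Nr4a1 (-0.039), Arc (-0.075) and Dusp1 (-0.16 and -0.0057), and left that with Ier2 at 0.065. Single rats turned the r of Egr1 with the first of Egr2 (-0.46 to 0.31), the second of Egr2 (-0.11 to 0.41) and Arc (-0.28 to 0.37). The number of compressed members with r of at least 0.6 was 0 after quantile normalization and 2 to 5 with single rats left out. The cause was not tested. No marker correlation passed in any alternative. The files give no signal over background, so whether the compressed members were near background was not tested.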
